A study of Mus musculus with 12 samples.

Results

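The NRF2 axis was followed through 10 genes in mouse lung: the transcription factor gene Nfe2l2 and its inhibitor gene Keap1, the cystine transporter gene Slc7a11, the glutathione genes Gclc, Gclm and Gsr, the thioredoxin and peroxiredoxin repair genes Txnrd1 and Srxn1, and the NRF2 target genes Nqo1 and Osgin1. The members were taken as the rows of the deposited array table that carry these symbols, 1 row for each, and all 10 were found among the 21532 genes read on the arrays. RNA came from lungs of female mice on the C57BL/6 background that were 10 weeks of age. Of 12 arrays, 11 were of lungs from obese db/db mice: 4 after isotype antibody and air, 4 after isotype antibody and O3, and 3 after anti-IL-17A and O3 (replicates 1, 2 and 4). The remaining array was of a wt lung after isotype antibody and O3. The db mutation disrupts the leptin receptor and is carried on both alleles in all groups but the last. O3 was given at 2 ppm for 3 h, and lungs were taken 24 h later. No wt air array and no array of anti-IL-17A in air was analysed here, so an O3 difference in wt lungs and an antibody difference in air could not be given. The labels name the left lung and the study's methods the right lung as the source of RNA, and neither says whether each array is a separate animal, so the p values measure the spread between arrays, which may be technical.

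NRF2, the protein made from Nfe2l2, is held in the cytoplasm by KEAP1, which presents it for degradation. Oxidants and electrophiles modify cysteines of KEAP1, after which NRF2 accumulates, pairs with a small MAF protein and binds antioxidant response elements in front of genes of glutathione synthesis, thioredoxin reduction and quinone detoxification. NRF2 activity is therefore set in large part by protein stability, which these arrays do not read. In the lung, inhaled O3 reacts with the fluid that lines the airways, and the oxidised products reach the epithelium.

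Signals are robust multi-array average (RMA) values on the log2 scale, on which a difference of 1 is a fold of 2. The lung genes Sftpc, Scgb1a1 and Ager lay at or above 9.72 on all 12 arrays, as the labelled tissue would have. Ucp1, the brown fat uncoupling gene, lay between 10.12 and 10.53 on air replicate 3, isotype O3 replicate 4 and anti-IL-17A replicate 1, and between 3.47 and 5.08 on the other 9 arrays. Anti-IL-17A replicate 1 also stood apart over all genes: its mean correlation with the other arrays was 0.947, against 0.972 to 0.982 for the rest, and 2615 genes lay more than 1 log2 unit from their median over the arrays, against 148 to 431. The counts of members called are given with and without these arrays.

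The sequence in front of 3 members, Slc7a11, Srxn1 and Osgin1, is shown first. All 3 hold the same form of antioxidant response element, and Slc7a11 differs from Srxn1 and Osgin1 in the other element it holds. Windows of 250 bases before the start of transcription were taken from RefSeq on GRCm38.p6 for 8 of the 10 members (10 windows). Capitals mark each match, on either strand, to the antioxidant response element in the forms TGACNNNGC and TGAGNNNGC, to the AP-1 site TGAGTCA, whose letters can overlap the second of those forms, and to the amino acid response element TGATGCAAA, a site for ATF4 and its partners.
Slc7a11: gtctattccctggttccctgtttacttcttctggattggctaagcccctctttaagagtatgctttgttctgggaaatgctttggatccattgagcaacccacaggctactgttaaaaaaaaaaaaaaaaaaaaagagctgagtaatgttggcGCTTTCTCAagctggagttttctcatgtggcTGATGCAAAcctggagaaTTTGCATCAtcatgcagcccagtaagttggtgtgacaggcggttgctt
Srxn1: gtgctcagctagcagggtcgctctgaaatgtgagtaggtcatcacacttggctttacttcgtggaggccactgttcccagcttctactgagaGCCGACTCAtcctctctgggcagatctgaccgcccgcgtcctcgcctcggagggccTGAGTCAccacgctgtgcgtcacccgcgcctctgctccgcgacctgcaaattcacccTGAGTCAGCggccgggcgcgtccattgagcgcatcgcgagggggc
Osgin1: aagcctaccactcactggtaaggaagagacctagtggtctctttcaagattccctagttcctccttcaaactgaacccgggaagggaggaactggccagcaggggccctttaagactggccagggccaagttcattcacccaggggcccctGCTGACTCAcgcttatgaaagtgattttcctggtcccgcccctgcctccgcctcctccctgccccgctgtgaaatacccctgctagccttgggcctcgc
The Slc7a11 window (GRCm38.p6 chr3:50443614-50443863, minus strand) held TGATGCAAA on both strands, at 66 to 58 and at 48 to 40 bases before the start, beside 1 element of the TGAGNNNGC form at 97 to 89. The Srxn1 window (GRCm38.p6 chr2:152105274-152105523, plus strand) held 2 elements of the TGAGNNNGC form, at 158 to 150 and at 45 to 37, the second of which overlapped an AP-1 site, and a separate AP-1 site at 102 to 96. The Osgin1 window (GRCm38.p6 chr8:119436897-119437146, plus strand) held 1 such element, at 99 to 91, that also contained an AP-1 site. Of the other members with a window, Gclm, Nfe2l2 and Txnrd1 held the TGACNNNGC form, and Keap1 and Nqo1 held neither form in these 250 bases. Txnrd1 had several windows, of which only that at GRCm38.p6 chr10:82858956-82859205 held a match. Keap1 and Nqo1 were higher on every isotype O3 array than on any air array, and Nfe2l2 was not. Bases farther from the start were not searched, and a link between matches and O3 differences was not tested. Over all 32841 windows of this length, 23% held either antioxidant form (10.2% TGACNNNGC and 14.4% TGAGNNNGC), 4.46% the AP-1 site and 0.225% TGATGCAAA. These are matches of letters and do not say that a factor was bound.

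In isotype-treated db/db mice, 8 of the 10 members lay higher on every O3 array than on any air array, and 8.82% of all genes did so. The differences ran from 0.31 for Keap1 to 2.21 for Slc7a11, with a median over the members of 0.74, against 0.00 over all genes. When all 12 arrays shared one estimate of the spread, none of the 10 members passed limma's moderated test at an adjusted p under 0.05 (0.599% of genes passed as higher), although 7 had an unadjusted p under 0.05, as 3248 of the 21532 genes did in either direction, and 2, Gclc and Nqo1, had an adjusted p under 0.1 (1.76% of genes were higher at that threshold). When only the 8 isotype air and isotype O3 arrays were fitted, 6 of the 10 members rose in limma at an adjusted p under 0.05 (4.9% of genes): Slc7a11, Gclc, Gclm, Txnrd1, Srxn1 and Nqo1. Both fits give the same differences and differ in the spread they are set against: the SD of Slc7a11 was 0.36 in air, 0.91 after O3 with isotype and 1.94 on the anti-IL-17A arrays, which enter only the first fit. In whole lung, more RNA per cell cannot be told apart from a change in which cells are present.

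**Figure D1:**
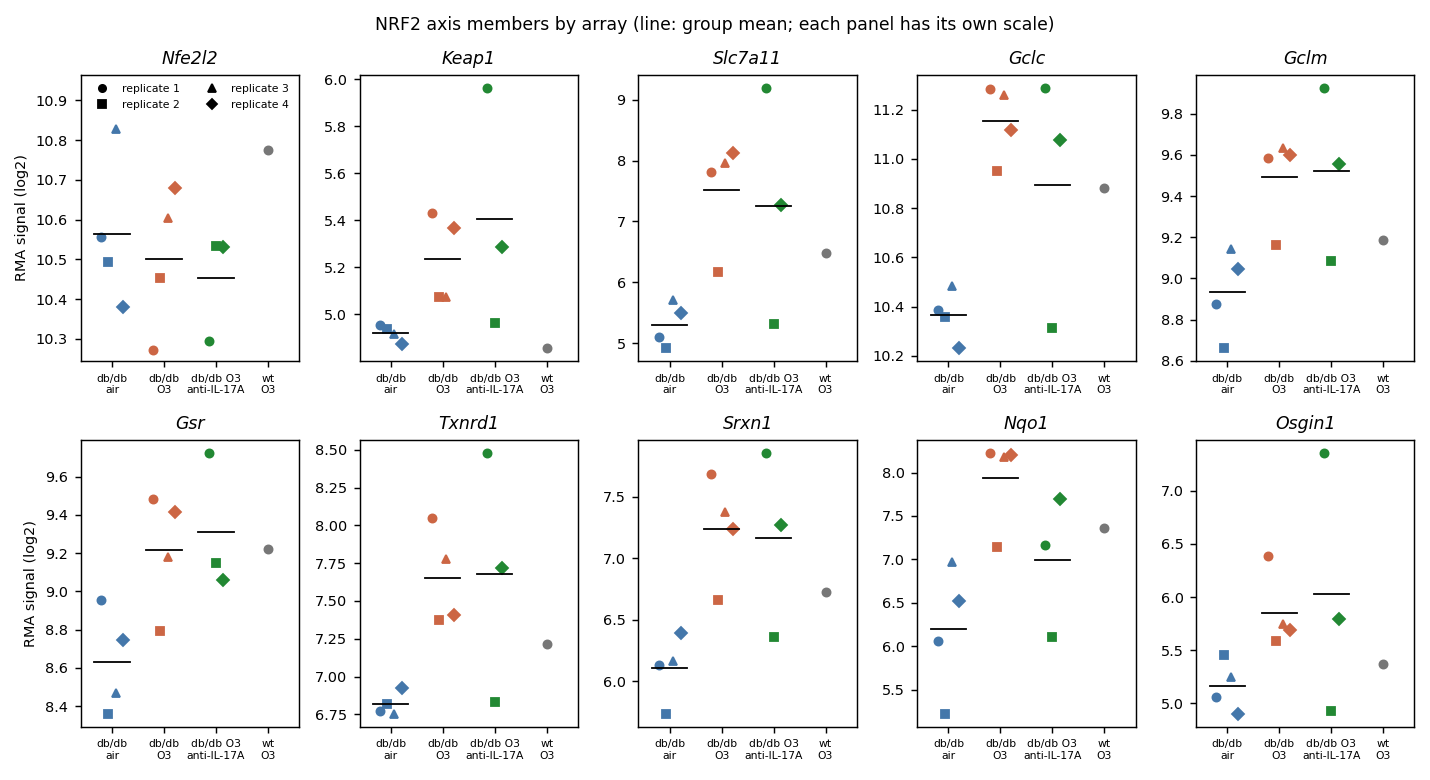
Log2 RMA signal (vertical axis, own scale in each panel) of the 10 members on each of the 12 arrays, grouped by genotype, antibody and exposure; symbols give the replicate number and lines the group means. Slc7a11, Gclc, Gclm, Txnrd1, Srxn1, Nqo1, Osgin1 and Keap1 are higher on all 4 isotype O3 arrays than on all 4 air arrays, and anti-IL-17A replicate 2 lies above all air arrays only for Keap1 and Gsr.

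The regulators came first. Nfe2l2 read 10.56, 10.49, 10.83 and 10.38 on the 4 air arrays and 10.27, 10.45, 10.61 and 10.68 on the 4 isotype O3 arrays. Both groups spanned much the same range, with a difference of -0.06 ± 0.12 (SE, limma, 12 arrays), a 95% interval of -0.34 to 0.21 and an adjusted p of 0.87. Keap1, which encodes the adaptor that brings NRF2 to the CUL3 ubiquitin ligase, read 4.95, 4.94, 4.92 and 4.87 in air and 5.43, 5.07, 5.07 and 5.37 after O3. Every O3 array lay above every air array, but on this dim probe set the gap between the closest arrays was small, and the difference of 0.31 ± 0.18 (SE) had an adjusted p of 0.46 in the limma fit of 12 arrays and of 0.089 in the fit of both groups.

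Slc7a11, which encodes the xCT subunit of the antiporter that brings in cystine in exchange for glutamate, showed the largest difference of the 10 members. It read 5.10, 4.92, 5.71 and 5.50 in air and 7.81, 6.17, 7.96 and 8.12 after O3. The groups did not overlap, and within the O3 group replicate 2 lay far below the others. The difference was 2.21 ± 0.71 (SE), 4.63-fold, with a 95% interval on the log2 scale of 0.64 to 3.78 (exact two-sided permutation p = 0.029 over 70 splits of the arrays, the smallest that 4 against 4 can give). Its adjusted p was 0.166 in the limma fit of 12 arrays and 0.015 in the fit of both groups.

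Gclc and Gclm encode the catalytic and the modifier subunit of glutamate-cysteine ligase, which joins glutamate to cysteine in the first step of glutathione synthesis. Gclc read 10.38, 10.36, 10.48 and 10.23 in air and 11.28, 10.95, 11.26 and 11.12 after O3. These were among the tightest groups of the set (SD 0.10 and 0.15, n = 4 each), and the gap between them was wider than the range of either. The difference of 0.79 ± 0.18 (SE), 1.73-fold, had an adjusted p of 0.074 in the limma fit of 12 arrays and of 0.0029 in the fit of both groups. Gclm read 8.88, 8.66, 9.14 and 9.05 in air and 9.58, 9.16, 9.63 and 9.60 after O3. The groups came close to touching, with O3 replicate 2 only just above air replicate 3, and the difference was 0.56 ± 0.18 (SE), 1.48-fold (limma adjusted p 0.174 with 12 arrays, 0.043 with both groups).

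Gsr, the NADPH-dependent reductase that returns glutathione disulfide to glutathione, read 8.95, 8.36, 8.47 and 8.75 in air and 9.48, 8.79, 9.18 and 9.42 after O3. It was the only target among the members whose groups overlapped, because O3 replicate 2 lay below air replicate 1. The difference was 0.58 ± 0.20 (SE), with a limma adjusted p of 0.190 with 12 arrays and of 0.084 with both groups. Txnrd1, the cytosolic selenoenzyme that reduces thioredoxin, read 6.77, 6.82, 6.76 and 6.93 in air and 8.05, 7.38, 7.78 and 7.41 after O3. The air arrays lay within 0.17 of each other and every O3 array was above them. The difference was 0.83 ± 0.29 (SE), 1.78-fold, with a limma adjusted p of 0.195 with 12 arrays and of 0.013 with both groups.

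Srxn1, sulfiredoxin, which repairs overoxidised peroxiredoxins, read 6.14, 5.74, 6.17 and 6.40 in air and 7.68, 6.66, 7.38 and 7.24 after O3. The groups did not overlap, and the difference was 1.13 ± 0.31 (SE), 2.19-fold (limma adjusted p 0.111 with 12 arrays, 0.018 with both groups). Nqo1, a quinone reductase widely used as a readout of NRF2, read 6.07, 5.23, 6.97 and 6.52 in air and 8.23, 7.14, 8.18 and 8.20 after O3. O3 replicates 1, 3 and 4 lay close together, and O3 replicate 2 was only just above the highest air array. The difference was 1.74 ± 0.43 (SE), 3.35-fold, the second largest of the members, with a limma adjusted p of 0.089 with 12 arrays and of 0.028 with both groups. Osgin1, an oxidative stress-induced growth inhibitor, read 5.06, 5.45, 5.25 and 4.91 in air and 6.39, 5.59, 5.75 and 5.69 after O3. The groups were separate, with replicate 1 the highest, and the difference was 0.69 ± 0.42 (SE), 1.61-fold (limma adjusted p 0.48 with 12 arrays, 0.060 with both groups).

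**Figure D2:**
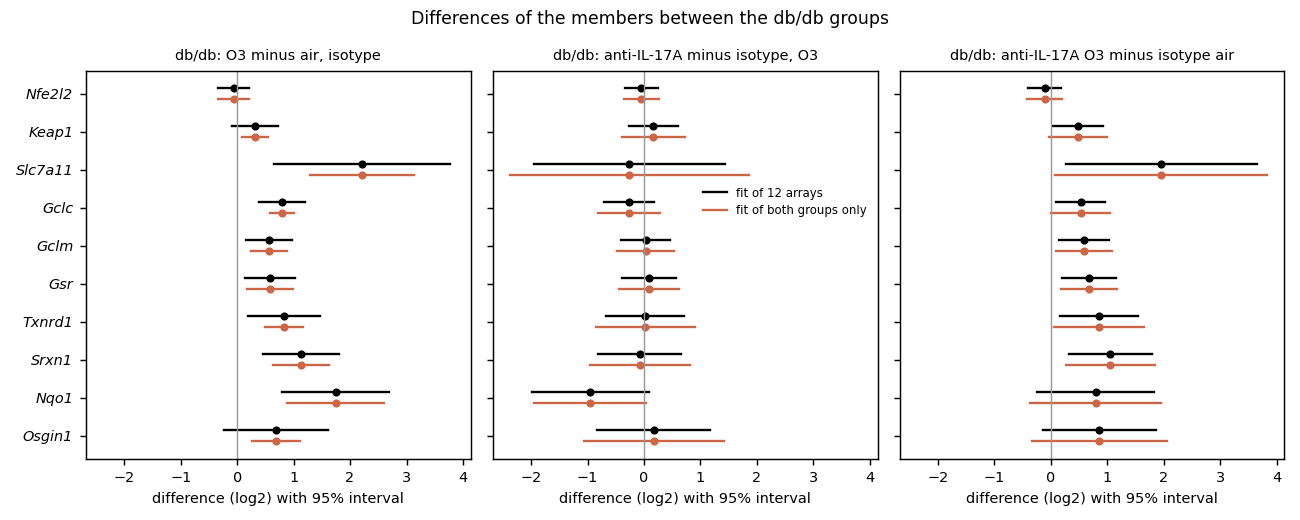
Differences on the log2 scale with 95% intervals for the 10 members in 3 comparisons between db/db groups; black, the limma fit of 12 arrays; orange, the fit of only both groups compared. For O3 minus air the orange intervals are the narrower for every member but Nfe2l2, where both have about the same width, while for anti-IL-17A minus isotype all intervals include 0.

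How many members passed depended on which arrays were fitted. In the fit of the 8 isotype arrays, leaving out each array in turn put Txnrd1 and Gclc past the threshold in 8 of 8 fits, Slc7a11 in 6, Srxn1 in 5, Nqo1 and Gclm in 2, Keap1, Gsr and Osgin1 in 1, and Nfe2l2 in 0. The count of members ran from 2, without air replicate 2 or without O3 replicate 3, to 9 without O3 replicate 2, the array that read lowest of its group for 9 of the 10 members. Over all genes these fits called from 747 to 2683, the highest again without O3 replicate 2, against 1689 with all 8 arrays. In the fit of 12 arrays the count was 0 with all arrays, 5 without anti-IL-17A replicate 2 (Nqo1, Srxn1, Txnrd1, Slc7a11 and Gclc) and 3 without anti-IL-17A replicate 1 (Srxn1, Slc7a11 and Gclc), although neither array enters the difference. Over all genes the same fits called 225, 899 and 822. Without air replicate 3 and O3 replicate 4, which had high Ucp1, the fit of the remaining isotype arrays called 4 members (Nqo1, Txnrd1, Slc7a11 and Gclc), while the fit across groups without all 3 arrays of high Ucp1 called 0.

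Anti-IL-17A against isotype in O3-exposed db/db mice addressed whether blocking IL-17A altered the O3 lung. None of the 10 members passed in either limma fit (0% of the 21532 genes did), and with 12 arrays 993 genes and none of the members had an unadjusted p under 0.05. For all 10 the antibody arrays overlapped the isotype arrays. So did most of the 21532 genes: 568 were higher and 306 lower on every antibody array than on any isotype O3 array. The differences had a median of -0.01, with adjusted p values from 0.83 to 0.99 in limma. Nqo1 showed the largest, at -0.95 ± 0.47 (SE), with a 95% interval of -1.98 to 0.08: its antibody arrays read 7.16, 6.11 and 7.70. The intervals were wide, reaching from -1.95 to 1.44 for Slc7a11 and from -0.67 to 0.72 for Txnrd1. Intervals of this width do not show that the antibody left the members as they were.

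The 3 antibody arrays differed more from each other than the group means did. Slc7a11 read 9.20, 5.31 and 7.27 on replicates 1, 2 and 4, where replicate 1 lay above every isotype O3 array and replicate 2 lay inside the range of the air arrays. Txnrd1 read 8.48, 6.84 and 7.72 on the same arrays, again with replicate 1 above all isotype O3 arrays and replicate 2 among the air arrays. Gclc read 11.29, 10.31 and 11.08, so that replicates 1 and 4 matched the isotype O3 group and replicate 2 the air group. Srxn1 (7.86, 6.36 and 7.27), Gclm (9.93, 9.09 and 9.55) and Osgin1 (7.36, 4.93 and 5.80) were ordered the same way, with replicate 1 highest and replicate 2 lowest. Keap1 was also highest on replicate 1, at 5.96, 4.96 and 5.29, while Gsr read 9.72, 9.15 and 9.06 and so had replicates 2 and 4 close together. Nfe2l2, at 10.30, 10.53 and 10.53, ran the other way, with its lowest antibody value on replicate 1.

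Replicate 1 held the highest value of all 12 arrays for 8 of the 10 members, all but Nfe2l2 and Nqo1. It was also the array that stood apart over all genes and had the highest Ucp1, and how many of all genes were highest on it was not counted. Without it the differences of anti-IL-17A from isotype were negative for 9 of the 10 members, Slc7a11 at -1.23 and Nqo1 at -1.03 being the largest, and Nfe2l2 was at 0.03 (limma adjusted p 0.9999 for all). Without replicate 2 they were positive for 8 of 10, Slc7a11 at 0.72 and Osgin1 at 0.72 among them, with adjusted p values from 0.34 to 0.92. For 9 of the members the sign of the antibody difference thus changed with which of these 2 arrays was left out, whereas Nqo1 stayed negative, at -0.51 without replicate 2.

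Set against air, the antibody-treated O3 lungs had differences of 1.95 for Slc7a11, 1.05 for Srxn1, 0.86 for Txnrd1, 0.86 for Osgin1, 0.79 for Nqo1, 0.68 for Gsr, 0.59 for Gclm, 0.53 for Gclc, 0.48 for Keap1 and -0.11 for Nfe2l2. Beside them, the isotype O3 lungs had 2.21, 1.13, 0.83, 0.69, 1.74, 0.58, 0.56, 0.79, 0.31 and -0.06 in the same order, against the same 4 air arrays. None of the 10 members passed in the antibody comparison (0% of genes did; 3572 genes and 7 members, all higher, had an unadjusted p under 0.05), with limma adjusted p values from 0.21 to 0.69. Only Keap1 and Gsr lay above all air arrays on all 3 antibody arrays, 2 of 10 members against 7.11% of all genes. Without replicate 2 the fit of the remaining 11 arrays called 7 members as higher (Keap1, Srxn1, Txnrd1, Slc7a11, Gclc, Gclm and Osgin1), with adjusted p values from 0.0058 for Gclc to 0.039 for Osgin1, while calling 2723 of all genes. Without replicate 1 it called none of the members.

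**Figure D3:**
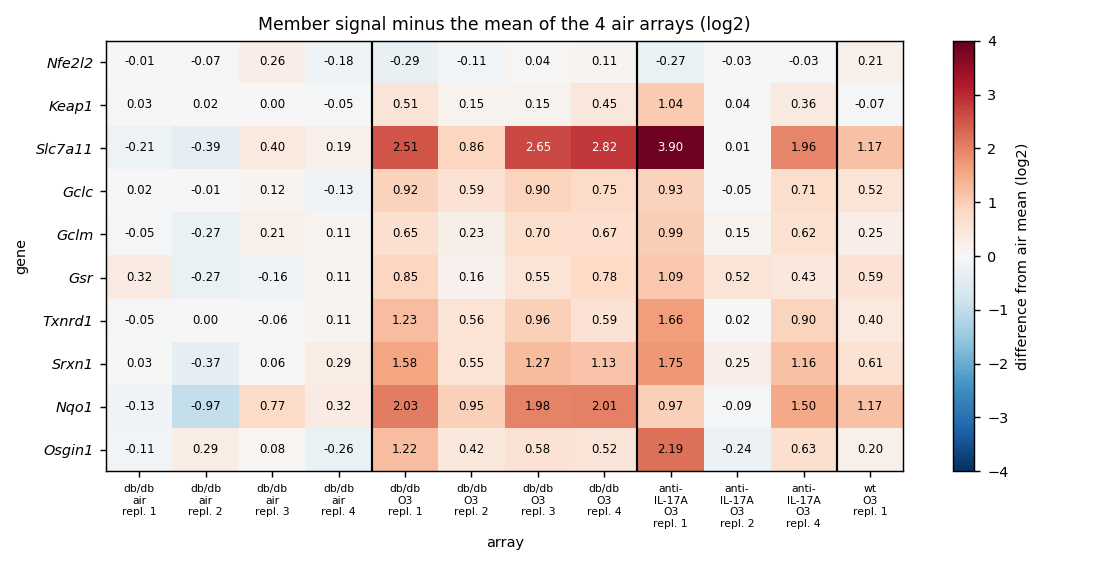
Log2 signal of each member (rows) on each array (columns) minus the mean of the 4 air arrays, with the value in each cell and colour from blue (below air) to red (above air). The Nfe2l2 row stays between -0.29 and 0.26, anti-IL-17A replicate 2 stays between -0.24 and 0.25 but for Gsr at 0.52, Slc7a11 reaches 3.90 on anti-IL-17A replicate 1, and isotype O3 replicate 2 is the palest of its group.

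Averaged over the 10 members, the arrays lay -0.02, -0.20, 0.17 and 0.05 from the air mean in air, and 1.12, 0.44, 0.98 and 0.98 after O3 with isotype. The antibody arrays lay at 1.42, 0.06 and 0.82, and the wt array at 0.51. Isotype O3 replicate 2 was therefore the weakest of its group and anti-IL-17A replicate 2 was at the air level. On that last array only 2 members, Keap1 and Gsr, were above all air arrays, whereas 9 members were on replicates 1 and 4. The share of all genes above the air arrays on each single array was not counted. Il6, an inflammatory cytokine gene, read 3.43 to 4.15 in air, 6.66 to 7.86 on the isotype O3 arrays, 7.34 on the wt array and 6.61, 5.25 and 6.91 on the antibody arrays, replicate 2 again the lowest of the O3 arrays but above all air arrays.

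The single wt O3 array gave one level per member with no replicate. It lay within the range of the 4 isotype O3 db/db arrays for Nqo1 (7.37), Srxn1 (6.72), Slc7a11 (6.48), Gclm (9.19) and Gsr (9.22). It lay below that range for Keap1 (4.86), Txnrd1 (7.21), Gclc (10.88) and Osgin1 (5.37), and above it for Nfe2l2 (10.77). For 7 members, Nqo1, Srxn1, Txnrd1, Slc7a11, Gclc, Gclm and Gsr, it was above every air array of db/db mice. How many of all genes lay above the air arrays or outside the isotype O3 range on this array was not counted. The difference of the wt array from db/db isotype O3 ran from -1.04 for Slc7a11 to 0.27 for Nfe2l2. Without isotype O3 replicate 2, the wt array would lie below the db/db range for 8 members rather than 4. With 1 array there is no test of genotype, and genotype cannot be told apart from the spread between arrays.

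The order of the group means was the same for several members. For Slc7a11, Srxn1 and Nqo1 it ran from isotype O3 down through anti-IL-17A O3 and wt O3 to air, except that for Nqo1 the wt array lay above the antibody mean. For Gclc it ran from isotype O3 to anti-IL-17A O3, wt O3 and air, with wt and antibody levels of 10.88 and 10.89. For Txnrd1, Gclm, Osgin1 and Gsr the antibody mean was the highest, by 0.02, 0.03, 0.17 and 0.09 over isotype O3. Keap1 ran from anti-IL-17A O3 (5.40) to isotype O3 (5.24), air (4.92) and the wt array (4.86), and Nfe2l2 from the wt array (10.77) to air (10.56), isotype O3 (10.50) and anti-IL-17A O3 (10.45). For none of the 10 members did isotype O3 and anti-IL-17A O3 differ beyond their spread in the limma fits, and the place of the wt array in each order rests on 1 value.

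Across the 12 arrays the members other than Nfe2l2 tended to follow each other, as a description over arrays that share groups and therefore exposures. Their median r with the rest of the members ran from 0.673 for Nqo1, which followed least closely, to 0.901 for Txnrd1. The closest pairs were Slc7a11 and Gclm (Pearson r = 0.971) and Srxn1 and Gclm (0.967), and Keap1 was closest to Osgin1 (0.937). Nfe2l2 had no r above 0.0477 with any other member, and its lowest was -0.534 with Keap1. Among all genes with a probe set of their own, those most like Slc7a11 were Pmpca (0.981), Zwint (0.980), Nsun5 (0.977), Itga3 (0.977) and Slc7a5 (0.975), the last of which encodes a large neutral amino acid transporter. Those most like Gclc were the metallothionein gene Mt2 (0.983), Clip4 (0.977), Pvr (0.976), Tspyl2 (0.975) and Mal (0.975). Txnrd1 was most like Eftud2 (0.976), Cldn4 (0.975), Znf512b (0.975), Rrp1b (0.975) and Sbds (0.975), and Srxn1 was most like Golga5 (0.984), Mybbp1a (0.982), Nsun5 (0.977) and Taf4b (0.977). Without the 2 arrays farthest from each member's median the r of these pairs stayed between 0.944 and 0.984.

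The genes around the axis were counted in the same fits. Of 15 other regulators of NRF2, which include the small MAF genes, Bach1, Cul3 and Sqstm1, 0 passed limma's test in either direction in the O3 comparison (1 at an unadjusted p under 0.05), and their median difference was 0.04. The smallest p values belonged to Maff, a small MAF partner (0.43 ± 0.18 SE, limma adjusted p 0.30), and Dpp3 (0.23 ± 0.14 SE, adjusted p 0.47). Of 25 further genes of glutathione synthesis and recycling, 1 rose and 0 fell, with a median of 0.13. The one that rose was Esd, a hydrolase of S-formylglutathione (0.45 ± 0.08 SE, limma adjusted p 0.039). Gss, which adds glycine in the second step of glutathione synthesis, read 6.39, 5.97, 6.35 and 6.22 in air and 6.99, 6.15, 6.79 and 6.73 after O3. Its groups overlapped and the difference was 0.43 ± 0.28 (SE, limma adjusted p 0.52 with 12 arrays, 0.179 with both groups). Of 17 genes of the thioredoxin system 0 passed in limma with 12 arrays (3 at an unadjusted p under 0.05, median -0.05). In the limma fit of both groups Secisbp2, a gene of selenoprotein synthesis (0.46, adjusted p 0.014), rose and Msrb2, a methionine sulfoxide reductase (-0.25, adjusted p 0.045), fell. Of 10 genes of NADPH supply 0 passed in either limma fit (1 at an unadjusted p under 0.05 with 12 arrays), with a median of 0.24. The largest differences were in G6pdx, the first enzyme of the pentose phosphate pathway (0.79, limma adjusted p 0.185), and Tkt (0.76, adjusted p 0.34).

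Of 28 other NRF2 targets, 1 (Esd again) rose with 12 arrays and the median was 0.16. In the fit of both groups 6 rose, namely Hmox1, Blvrb, Akr1b8, Ugdh, Gpx2 and Esd, and 2 fell, the glutathione transferase genes Gstm1 and Mgst1, where 1055 of all 21532 genes rose and 634 fell. Hmox1, heme oxygenase 1, read 7.84, 7.68, 8.07 and 7.44 in air and 9.17, 8.34, 9.03 and 9.36 after O3. The groups were separate, and the difference was 1.22 ± 0.41 (SE, limma adjusted p 0.180 with 12 arrays, 0.014 with both groups). On the antibody arrays Hmox1 read 10.44, 8.18 and 9.13 and on the wt array 8.46, so that replicate 1 was again the highest of all 12 and replicate 2 the lowest of the O3 arrays, though above all air arrays.

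Slc7a11 is also a target of ATF4, the factor of the amino acid and unfolded protein stress response. A list of 19 other genes, made up of Atf4 itself and further ATF4 targets, was therefore counted. With 12 arrays 2 rose and 0 fell (median 0.34): Mthfd2, of mitochondrial folate metabolism, and Psat1, of serine synthesis. Mthfd2 read 6.45, 5.86, 6.34 and 6.40 in air and 7.40, 7.58, 7.86 and 8.11 after O3, a difference of 1.48 ± 0.23 (SE, limma adjusted p 0.037). Psat1 read 6.63, 5.37, 6.71 and 5.99 in air and 8.04, 7.46, 7.87 and 8.22 after O3, a difference of 1.72 ± 0.31 (SE, limma adjusted p 0.040). For both genes every O3 array lay above every air array. In the fit of both groups 5 of the 19 rose, including Asns and Slc7a5, against the 4.9% of all genes given above. In the comparison of anti-IL-17A with isotype 0 genes of any of these 6 lists passed in limma, with 0 to 4 genes a list at an unadjusted p under 0.05. The calls of Esd, Mthfd2 and Psat1 in the fit of 12 arrays were lost when any 1 of the 8 isotype arrays was left out and held in all 8 such fits of both groups alone.

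**Figure D4:**
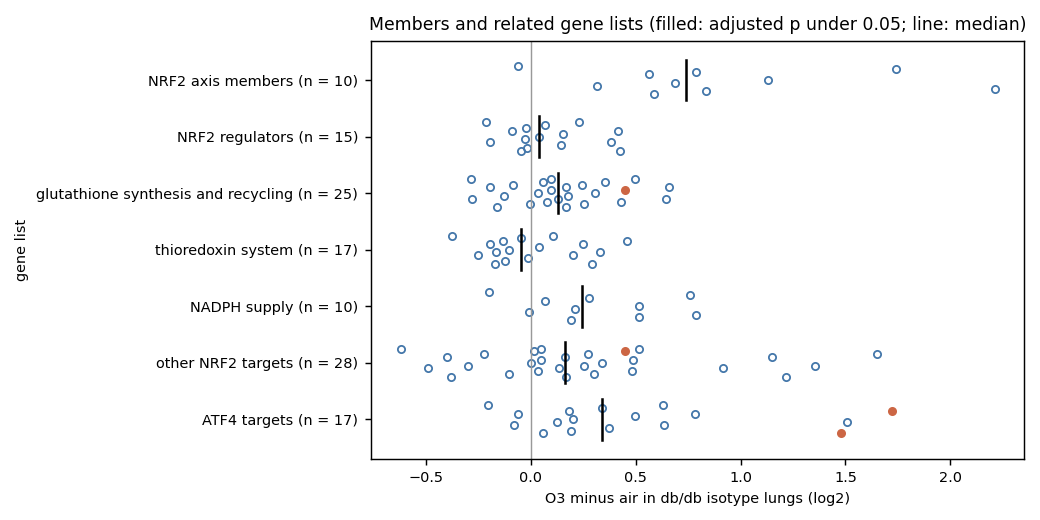
O3 minus air in db/db isotype lungs on the log2 scale (horizontal axis) for the 10 members and for 6 related lists (rows); each circle is a gene, filled where the limma adjusted p of the 12-array fit was under 0.05, and lines are medians. The members' median of 0.74 is the highest, and the filled genes are Esd, which stands in 2 lists, Mthfd2 and Psat1; 2 ATF4 targets read only by probe sets shared with other genes are left out.

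Marker RNA of some cell types also differed with O3 on the same arrays. In the 12-array fit 96 of all 21532 genes fell. Of 10 club cell markers 0 rose and 3 fell in that fit (Scgb3a2 dropped by 1.31, Cbr2 dropped by 0.57 and Aldh1a1 dropped by 0.50 on the log2 scale). The summed linear signal of the club cell list was 21500 to 23580 in air and 14110 to 16580 after O3. Of 10 measured ciliated cell markers 1 fell, Tmem212, which dropped by 1.94, 9 were lower at an unadjusted p under 0.05, and the median difference was -1.78, with summed signals of 2006 to 2522 in air, 528.4 to 823.3 on isotype O3 arrays and 1265 on the wt array. On the antibody arrays the mean log2 signal of the ciliated list was 5.25, 6.99 and 5.37, against 7.0 to 7.28 in air. Anti-IL-17A replicate 2, whose mean over the members was near air, was thus near air in this list. In the club cell list the antibody arrays were at 10.76, 10.55 and 10.14. Air arrays had 10.85 to 11.03 and isotype O3 arrays 10.21 to 10.54, so replicate 2 was below air in that list. Of 14 adipocyte, 10 alveolar macrophage, 11 neutrophil, 10 alveolar type 2, 9 alveolar type 1 and 9 endothelial markers none passed in the 12-array limma fit, with 1 to 3 a list at an unadjusted p under 0.05. In the fit of both groups, which called 6 members, 4 club and 7 ciliated markers fell, the macrophage gene Ctsk and the neutrophil gene Ltf rose, and the macrophage gene Fabp1, the alveolar type 1 gene Rtkn2 and the endothelial gene Tek fell. Summed adipocyte signal was 1043 to 4276 in air and 1023 to 3297 after O3, macrophage signal 4856 to 5391 and 3505 to 5844, neutrophil signal 1414 to 8134 and 1753 to 3413, and alveolar type 1 signal 12520 to 13280 and 11520 to 12870, so these ranges overlapped. Summed alveolar type 2 signal was 14680 to 16860 in air and 13460 to 14440 after O3. Summed endothelial signal was 10410 to 10900 and 8422 to 10060. Both sums were lower on every isotype O3 array than on any air array. By mean log2 signal, however, the alveolar type 2 ranges overlapped (9.717 to 9.999 in air, 9.767 to 9.929 after isotype O3). By the same measure alveolar type 1 was lower on every isotype O3 array (10.03 to 10.12 and 9.79 to 9.97). So was the endothelial list (9.64 to 9.73 and 9.24 to 9.61). None of the defining markers was at 0, since RMA signals have a positive floor. Like those of the lists above, the calls of these 4 markers were lost in the 12-array fit when any 1 of the 8 isotype arrays was left out. The part of cell composition in the members' differences was not tested.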

How the data were processed

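Total lung RNA was hybridised to Affymetrix mouse gene arrays. Per the labels, the authors used oligo, RMA and limma, with no versions, and the genome build is not given in the sources used here. Both deposited tables hold the same log2 RMA signals (largest difference 0), and the authors' statistics of O3 against air in one of them were not used.

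A symbol is listed for 25254 of the 35556 probe sets. Symbols were set against the array annotation, 425 probe sets with conflicting names were left out, and each of 21532 genes was read by its brightest probe set, one of a single gene where there was any. limma 3.58.1 in R 4.3.3 was fitted with 1 mean per group (8 residual degrees of freedom) and no filter on dim genes. Tests were two-sided, with p values adjusted over all genes by Benjamini-Hochberg and a threshold of 0.05. The fit of only both groups compared, exact permutation tests and other normalizations, filters, variance models and left-out arrays were run beside it. The scripts were tested on simulated data. Arrays give no counts, so their number limits the precision.

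The members, lists and marker genes were chosen with earlier results of these data known. Groups came from the labels. All 10 members are named. Of each list, up to 4 genes that passed are named, or else the 2 with the smallest p, and Gss and Hmox1 always. For Slc7a11, Gclc, Txnrd1 and Srxn1 the 5 genes of highest Pearson r are named, except 1 that is not reported here. Genes named as passing only in the fit of both groups were added after their values were seen, and genes read only by shared probe sets are not named.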

Additional observations from a re-analysis of the deposited data

Results flagged for a closer look

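In 74 groups of 4 arrays, one for each gene and group examined, 5 held an array set far from the others by Dixon's criterion, where chance would set apart about 1 in 20. Isotype O3 replicate 2 was the low one for 3 members: Nqo1 read 7.145 against 8.176 to 8.226 on the other O3 arrays, Slc7a11 read 6.168 against 7.813 to 8.124, and Gclm read 9.163 against 9.583 to 9.633. The same array was low for the club cell gene Cbr2, at 10.79 against 11.17 to 11.23. Air replicate 1 was low for the club cell gene Aldh1a1, at 11.33 against 11.50 to 11.52.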

How the results depend on the processing

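The count of members called for O3 against air, 0 in the fit of 12 arrays, was 6 with array weights (whose estimation stopped before it converged), 6 in the fit of both groups only, 2 with the replicate number as a block (Nqo1 and Srxn1), 2 at an adjusted p under 0.1, and 4 in the fit of both groups without the 2 arrays of high Ucp1, which was chosen after seeing the data. Leaving out single arrays gave 0 to 9. For anti-IL-17A O3 against air it was 8 with array weights and 0 to 7 with single arrays left out. The wt array lay below the isotype O3 range for 4 to 8 members over the same choices. For anti-IL-17A against isotype the count was 0 under every alternative run, including the replicate block. Over all genes, O3 against air gave 225 calls, 0 without moderation, 20 with array medians subtracted, 149 after quantile normalization, 2458 with array weights, 1689 with both groups only, 0 to 2683 with single arrays left out (0 to 14 where an isotype array was left out of the 12-array fit), 654 at an adjusted p under 0.1, 1 without the 3 arrays of high Ucp1 and 903 without 2 of them in the fit of both groups. Anti-IL-17A O3 against air gave 0 calls, 5692 with array weights and 0 to 2723 with single arrays left out.

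None of the differences that changed sign had passed the test. For anti-IL-17A against isotype, array weights gave 0.016 for Nfe2l2, -0.026 for Txnrd1, -0.146 for Gsr and -0.089 for Osgin1, and the replicate block gave 0.013 for Nfe2l2. Without the 3 arrays of high Ucp1 it was 0.090 for Nfe2l2, -0.067 for Keap1, -0.46 for Txnrd1, -0.14 for Gclm, -0.047 for Gsr and -0.55 for Osgin1, and anti-IL-17A O3 against air was 0.056 for Nfe2l2. With single arrays left out, anti-IL-17A against isotype ran from -0.13 to 0.031 for Nfe2l2, -0.11 to 0.39 for Keap1, -0.42 to 0.32 for Srxn1, -0.38 to 0.45 for Txnrd1, -1.23 to 0.72 for Slc7a11, -0.46 to 0.030 for Gclc, -0.17 to 0.25 for Gclm, -0.11 to 0.22 for Gsr and -0.49 to 0.72 for Osgin1, and O3 against air ran from -0.12 to 0.025 for Nfe2l2. The cause was not tested.

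The labels do not say what a replicate number stands for. Same-numbered air and isotype O3 arrays deviated from their group means with correlations of 0.111, 0.292, -0.205 and -0.411. For anti-IL-17A and isotype O3 the correlations were 0.43, 0.445 and -0.131 for replicates 1, 2 and 4. Those for anti-IL-17A and air were -0.172, -0.149 and 0.121. Replicate 2 had the lowest mean over the members in air (-0.20), after isotype O3 (0.44) and after anti-IL-17A (0.06). With mixed signs, the numbers were not taken as pairs, and whether arrays of 1 number share a batch was not tested. The block moved the count of genes from 225 to 234. Signals near the floor, such as those of Keap1, limit what small differences can show. In air, Slc7a11 (4.92 to 5.71) and Osgin1 (4.91 to 5.45) were nearly as dim as Keap1 (4.87 to 4.95).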
